A study of Mus musculus with 12 samples.

Results

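The effect of developmental N-methyl-D-aspartate receptor (NMDAR) antagonism in aspartame-exposed mice was examined in hypothalamic RNA, by setting the 3 arrays of mice that received aspartame alone (ASP) against the 3 arrays of mice that received aspartame and the NMDAR antagonist CGP 39551 (ASP+CGP). These 6 arrays, of 12 in the series, were taken by their treatment labels, with no use of the measured values. All groups were male C57Bl/6J mice on standard chow, killed at 21 weeks of age. The ASP and ASP+CGP mice drank aspartame at 46 mg/kg, from before birth and through life. In ASP+CGP the drug was given in the water at 5 mg/kg of the dams, from conception to postnatal day 28, so that it had been stopped long before the tissue was taken. The other 6 arrays were of mice given neither agent (CON, 3 arrays) and of mice given CGP 39551 alone at the same dose and for the same period (CGP, 3 arrays), and serve here as the background. Each group was 1 pool of RNA from several mice, hybridised to 3 Affymetrix Mouse Gene 1.0 ST arrays, which measure RNA with probes along the length of each gene. The 3 arrays of a group are repeats of that pool, so p-values below measure the spread between arrays and not between mice, and whatever else set 1 pool of RNA apart from another cannot be told apart from the treatment.

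NMDARs are ionotropic glutamate receptors, assembled from GluN1 with GluN2 or GluN3 subunits, which admit calcium and shape developing synapses. Aspartate, which is released when aspartame is broken down together with phenylalanine and methanol, is one of their agonists, and CGP 39551 competes with glutamate for its site on the receptor. The hypothalamus governs the pituitary through releasing hormones, and through pituitary adrenocorticotropic hormone it drives the adrenal cortex, the chain known as the HPA axis. The pituitary hangs directly beneath the hypothalamus on a stalk, whereas the adrenal gland, the pancreas and the main fat depots lie outside the skull.

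The block was recognisable as hypothalamus in both pools. Genes for the hypothalamic peptides hypocretin (Hcrt), oxytocin (Oxt), vasopressin (Avp) and melanin-concentrating hormone (Pmch) had mean log2 signals of 12.49, 11.81, 10.76 and 11.77 in ASP, and of 12.47, 11.76, 10.71 and 11.85 in ASP+CGP. Over all probe sets tested, arrays of the ASP pool correlated with each other at r = 0.9979 to 0.9982, arrays of the ASP+CGP pool at 0.9951 to 0.9983, and arrays of different pools at 0.9875 to 0.9915. The third ASP+CGP array stood apart from the other 2 of its pool, with an SD of its deviations from the pool mean of 0.101 against 0.0664 and 0.0713, and the third CON array did so in its pool, at 0.0917. The deviations of these 2 arrays went together (r = 0.539), which bears on every overlap of ASP+CGP with CON below. Counts of genes are therefore also given without the third ASP+CGP array where they change.

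Of 17186 genes tested, 219 (1.27%) differed between ASP+CGP and ASP at an adjusted p below 0.05 by limma and by more than 1.4-fold. Almost all of these differentially expressed genes (DEGs) were downregulated in ASP+CGP relative to ASP. There were 213 lower genes (1.24%) and 6 higher genes (0.0349%), and without the third ASP+CGP array 215 and 8. In none of the 219 did the values of the 2 groups of arrays overlap, but they were called on these same arrays. Uncalled genes such as Ttr and B2m did not overlap either, and the share over all genes is not given here. Log2 signals under 6, the threshold below which the study discarded values, give only a bound on a difference, and 21 of the lower and 2 of the higher genes had such a mean in 1 of the 2 pools. With those means set to 6, 208 of the lower genes were over 1.4-fold, 73 over 2-fold, 33 over 4-fold and 10 over 10-fold lower, and 5 of the higher genes were over 1.4-fold higher. The median log2 difference of all genes was 0.01, on values whose distributions the authors had made equal by quantile normalization. At the adjusted p alone, with no fold threshold, 730 genes were lower and 458 higher. At an unadjusted p below 0.05 by limma there were 3600 of the 17186 genes, the background for such counts in the lists below.

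**Figure D1:**
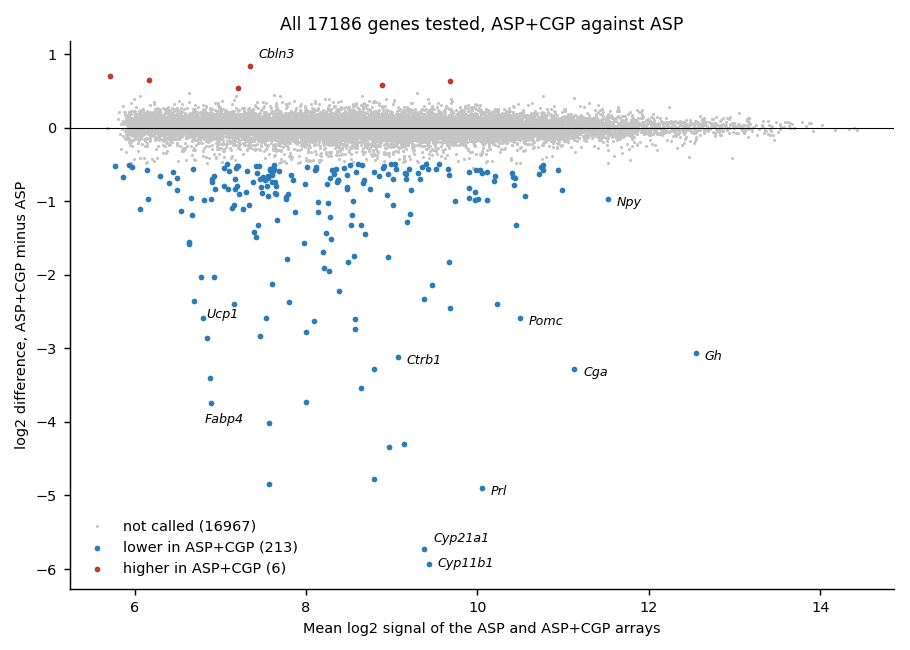
Log2 difference between ASP+CGP and ASP (vertical axis) of each of 17186 genes against its mean log2 signal on the 6 arrays (horizontal axis), with lower genes in blue, higher genes in red and other genes in grey. The 213 lower genes reach down to -5.93 for Cyp11b1, whereas the 6 higher genes stay under 1 and the grey genes lie about 0.

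Of the lower genes, 82 were members of a list and 131 of none. The largest differences were in genes of the adrenal cortex, of adipose tissue, of the exocrine pancreas and of the anterior pituitary, and 9 of the 15 largest were members of the adrenal, adipose or pancreatic enzyme lists. Those lists held 77 genes tested, of which 47 were lower in ASP+CGP, against 1.24% of all genes. The lists were chosen with earlier results of these data known, so the count is a description and not independent evidence. In bulk RNA of this kind, fewer cells of a type and less RNA per cell cannot be told apart.

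Adrenocortical genes showed the greatest range. The list held the enzymes that turn cholesterol into corticosteroids, the proteins that bring cholesterol to them, and the corticotropin receptor. Of its 15 members tested, 13 were lower in ASP+CGP and none higher, with a median log2 difference of -2.23, against 0.01 for all genes, and the count was 13 without the third ASP+CGP array. Cyp11b1 encodes 11β-hydroxylase, which makes corticosterone. Its log2 signal was 12.44, 12.39 and 12.39 in ASP and 6.51, 6.53 and 6.38 in ASP+CGP. The CON arrays read 6.33, 6.29 and 6.46, and the CGP arrays 6.39, 6.49 and 6.32, so that the ASP pool alone was high and the other 3 pools shared 1 range. The log2 difference between ASP+CGP and ASP was -5.93 ± 0.06 (SE), 60.8-fold, with an adjusted p of 2.74e-16 by limma.

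Cyp21a1, the 21-hydroxylase one step earlier in the pathway, read 12.22, 12.31 and 12.22 in ASP and 6.69, 6.31 and 6.55 in ASP+CGP, a 53.1-fold difference. Cyp11a1, which cleaves the cholesterol side chain and so begins steroid synthesis, read 11.19, 11.16 and 11.19 against 6.24, 6.50 and 6.47 (27.4-fold). For Star, which carries cholesterol into the mitochondrion, the values were 11.10, 11.15 and 11.16 against 6.73, 6.86 and 6.80 (20.3-fold). In each of these the ASP arrays stood more than 4 log2 units above the 3 arrays of every other pool. Hsd3b1, a 3β-hydroxysteroid dehydrogenase, was at 10.12, 9.97 and 9.87 in ASP and at 5.14, 5.26 and 5.02 in ASP+CGP. Mc2r, the receptor for adrenocorticotropic hormone, was at 8.48, 8.78 and 9.04 against 4.95, 4.98 and 5.15. The lower values of these last genes lie under a log2 signal of 6, so their differences are given as at least 15.9-fold for Hsd3b1 and at least 6.81-fold for Mc2r, taken against 6.

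Smaller differences were seen in Scarb1, the receptor that takes up lipoprotein cholesterol (-2.39 on the log2 scale), in the aldosterone synthase gene Cyp11b2 (-1.48) and in Nr5a1, the steroidogenic factor SF-1 (-0.71). Nr5a1 is also a gene of the ventromedial hypothalamus, and it read 9.05, 9.03 and 9.01 in ASP and 8.25, 8.40 and 8.3 in ASP+CGP, against 8.34 to 8.48 in CON. The members that were not called were Inha (-0.24) and Nr0b1 (-0.14). Measured together, the summed signal of the 15 genes was 14.49 to 14.51 log2 units in ASP, 11.59 to 11.67 in ASP+CGP, 11.68 to 11.72 in CON and 11.70 to 11.72 in CGP. In 12 of the 13 lower genes the ASP+CGP arrays overlapped the CON arrays, and the ASP arrays lay above every CON and CGP array in all 13. Among all 213 lower genes these counts were 142 and 202. Lower genes were called for standing high in ASP on these same arrays, so such counts here and below are descriptions. The log2 differences of these 13 genes between ASP+CGP and CON ran from -0.13 to 0.13, and those between ASP and CON from 0.61 to 6.04. What part adrenal cells might have in the ASP values was not tested.

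The promoter of Hsd3b1 is shown because it is, among the lower adrenocortical genes, the one with the largest difference for which a RefSeq promoter was found. It was searched on both strands for AAGGTCA, letters that SF-1 binds, which would stand in capitals. The sequence covers the 300 bases around the start of transcription, mostly before it, on the minus strand of chromosome 3 (GRCm38.p6, chr3:98859745-98860044).
Hsd3b1: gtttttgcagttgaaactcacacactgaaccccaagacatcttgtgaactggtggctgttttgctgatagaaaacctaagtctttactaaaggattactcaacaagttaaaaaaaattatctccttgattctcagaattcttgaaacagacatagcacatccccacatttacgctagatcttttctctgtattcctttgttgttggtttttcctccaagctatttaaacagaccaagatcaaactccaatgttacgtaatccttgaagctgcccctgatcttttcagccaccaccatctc
The letters were not in this window, nor in those of the other lower adrenocortical genes matched (0 of 5 genes), and 4.7% of all 32851 mouse promoters in the table hold them. Here and below a gene was counted if any of its promoters held the letters, whereas the share is of single promoters.

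Genes of the adrenal medulla, which makes adrenaline, were lower in part. Of 13 members tested, 4 were lower in ASP+CGP, with a list median of -0.38. Dbh, which makes noradrenaline from dopamine, read 8.89, 9.0 and 8.77 in ASP and 5.99, 6.19 and 5.97 in ASP+CGP (7.14-fold). Pnmt, which turns noradrenaline into adrenaline, read 9.21, 9.45 and 9.51 against 6.54, 6.64 and 6.68 (6.82-fold). For both, the ASP+CGP arrays overlapped the CON arrays, at 6.09 to 6.23 for Dbh and at 6.39 to 6.84 for Pnmt. The vesicular monoamine transporter of chromaffin cells, Slc18a1, differed by -0.68. Th, tyrosine hydroxylase, which hypothalamic dopamine neurons also make, differed by -0.57 (adjusted p 0.000142 by limma). The call of Th rested on the third ASP+CGP array, at 10.30 where the other 2 read 10.58 and 10.57. Without it the difference was -0.48 and under 1.4-fold, and the list held 3 lower genes. The summed signal of the list was 14.25 to 14.28 in ASP and 13.99 to 14.00 in ASP+CGP, with CON at 13.95 to 14.03, and what part medullary cells had in it was not tested. Chga, the chromogranin of dense-core granules throughout neurons and endocrine cells, was 1.31-fold lower and not called.

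Adipose genes were the next group. In the white and general adipose list 12 of 20 members were lower in ASP+CGP and none higher (median -0.71), and in the brown adipose list 4 of 10 (median -0.31). Car3, a carbonic anhydrase abundant in fat, read 11.32, 11.35 and 11.20 in ASP and 6.90, 7.05 and 7.02 in ASP+CGP, a 19.7-fold difference. Fabp4, the fatty acid binding protein of adipocytes, read 9.69, 9.72 and 9.31 against 5.57, 5.54 and 5.57, at least 11.9-fold against a signal of 6. Cidec, which enlarges lipid droplets, was 6.09-fold lower, and the adipokine genes Retn and Adipoq were lower by 6.63-fold and by at least 3.67-fold. The fatty acid transporter Cd36 was lower by at least 4.83-fold. In each of these the ASP+CGP arrays overlapped those of CON.

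Ucp1, the uncoupling protein by which brown fat makes heat, read 8.77, 8.87 and 8.83 in ASP, 6.38, 6.12 and 6.23 in ASP+CGP, 6.30, 6.27 and 6.16 in CON and 6.36, 6.26 and 6.39 in CGP. It was 5.98-fold lower in ASP+CGP than in ASP, with no overlap between ASP and any other pool. Cox8b (3.76-fold), a respiratory chain subunit of brown fat, and Cidea (2.06-fold), a lipid droplet protein, were also lower. The fatty acid elongase Elovl3 passed the test, but with its ASP+CGP signal set to 6 the difference was 1.18-fold. Without the third ASP+CGP array 5 genes of the list were called. Dio2, Ppargc1a and Prdm16, which are linked to brown fat but also made in brain, had log2 differences between -0.11 and 0.07. Leptin (Lep) was at 6.07, 6.01 and 6.09 in ASP and at 5.85, 5.93 and 5.83 in ASP+CGP, close to the threshold of detection in all pools, and was not called. The summed signal of the 20 white and general adipose genes was 14.53 to 14.57 in ASP and 13.75 to 13.80 in ASP+CGP, with CON at 13.74 to 13.80. What part adipose cells might have in it was not tested.

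**Figure D2:**
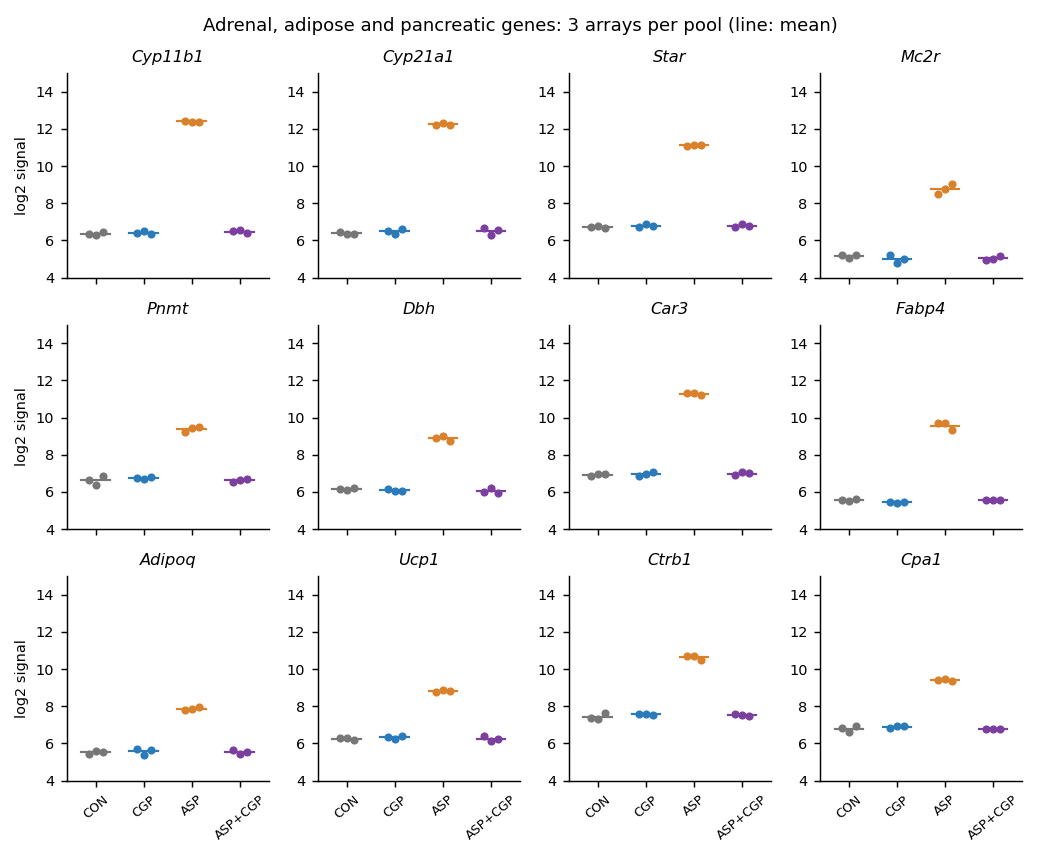
Log2 signal (vertical axis, 4 to 15) of 12 adrenal, adipose and pancreatic genes on the 3 arrays of each of the 4 pools (points; the line is their mean). In every panel the 3 ASP arrays stand alone, for example at 12.39 to 12.44 for Cyp11b1 and 8.77 to 8.87 for Ucp1, and the ASP+CGP arrays lie at the level of CON and CGP.

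The digestive enzymes of the exocrine pancreas behaved alike. Of 20 enzyme genes tested, 15 were lower in ASP+CGP and none higher, with a median of -0.99, and 16 were lower without the third ASP+CGP array. Ctrb1, a chymotrypsinogen, read 10.69, 10.69 and 10.51 in ASP and 7.56, 7.52 and 7.48 in ASP+CGP (8.64-fold). The carboxypeptidase genes Cpa1 and Cpb1 were lower by 6.19-fold and by at least 5.14-fold, and colipase (Clps) by 3.37-fold. The 6 genes tested for transcription factors and regulators of acinar cells had a low median log2 signal, 6.94 in ASP and 6.91 in ASP+CGP. That of the enzymes was 8.02 and 7.20. Ptf1a, at means of 6.23 and 6.38, was close to the threshold of 6, where differences are compressed. These 6 genes held no call, Ptf1a differing by 0.14 and Bhlha15 by -0.11. Nor did the 8 genes of the pancreatic islet, where Ins2 read 6.89, 6.80 and 6.96 in ASP and 6.87, 6.83 and 6.90 in ASP+CGP. At an unadjusted p below 0.05 by limma the regulators held 0 and the islet list 2, against 3600 of all 17186 genes. In 12 of the 15 lower enzyme genes the ASP+CGP arrays overlapped those of CON. The letters CACCTG, searched on both strands, were in at least 1 promoter of 6 of the 12 lower enzyme genes matched to RefSeq. They were in 20.2% of all promoters taken singly, which is not the same unit. The summed enzyme signal was 12.87 to 12.93 in ASP, 11.42 to 11.56 in ASP+CGP and 11.37 to 11.50 in CON, and a contribution of pancreatic cells to it was not tested.

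Genes of the pituitary hormones followed another pattern across the 4 pools. All 7 were lower in ASP+CGP than in ASP, with a median log2 difference of -2.58, and all 7 were lower without the third ASP+CGP array too. Prl, the gene for prolactin, read 12.51, 12.49 and 12.53 in ASP and 7.54, 7.24 and 8.04 in ASP+CGP. The CON arrays were at 10.80, 10.67 and 11.03 and the CGP arrays at 12.17, 12.21 and 12.26. Thus ASP and CGP were above CON while ASP+CGP was below it, with no overlap between ASP+CGP and any other pool. The difference between ASP+CGP and ASP was -4.90 ± 0.14 (SE), 29.8-fold (adjusted p 1.67e-11 by limma), and that between ASP+CGP and CON was -3.22.

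Gh, the growth hormone gene, read 14.08, 14.09 and 14.07 in ASP, 11.04, 10.97 and 11.05 in ASP+CGP, 13.34, 13.36 and 13.30 in CON and 13.98, 13.98 and 13.93 in CGP (8.34-fold lower in ASP+CGP than in ASP). Cga, the α subunit shared by the glycoprotein hormones, read 12.80, 12.76 and 12.75 in ASP and 9.39, 9.29 and 9.79 in ASP+CGP, against 11.41, 11.43 and 11.67 in CON (9.72-fold). The β subunit genes of luteinising hormone, Lhb, and of follicle-stimulating hormone, Fshb, were lower by 5.44-fold and 3.21-fold. Tshb, that of thyroid-stimulating hormone, was the least changed, at 7.50, 7.40 and 7.65 in ASP and 6.84, 6.72 and 6.89 in ASP+CGP (1.63-fold). The order of the pools was the same for each of the 7 genes at its low end, since every ASP+CGP array lay below every CON array. At the high end every ASP array was above every CON and CGP array in 5 of the 7, as for Lhb at 10.83 to 10.98 against 10.36 to 10.55 in CGP. For Fshb the CGP arrays (9.37, 9.23 and 9.18) were above the ASP arrays (9.13, 9.0 and 8.99).

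Pomc is the precursor of adrenocorticotropic hormone in pituitary corticotrophs and of melanocortins in neurons of the arcuate nucleus. It read 11.74, 11.85 and 11.78 in ASP, 9.25, 9.20 and 9.18 in ASP+CGP, 10.84, 10.88 and 10.91 in CON and 11.44, 11.48 and 11.50 in CGP, and was 5.98-fold lower in ASP+CGP than in ASP. The arrays cannot assign its signal to either cell type. Cartpt, which arcuate Pomc neurons also make, read 10.25, 10.28 and 10.24 in ASP and 10.29, 10.36 and 10.49 in ASP+CGP, a log2 difference of 0.12 with a 95% interval from -0.02 to 0.26.

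**Figure D3:**
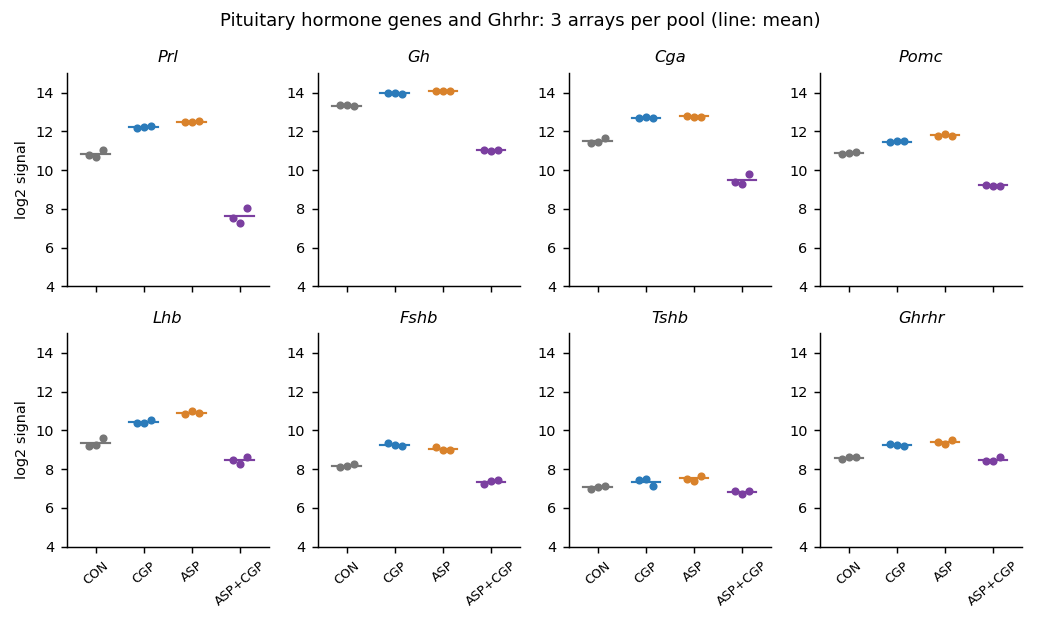
Log2 signal (vertical axis, 4 to 15) of the 7 pituitary hormone genes and of Ghrhr on the 3 arrays of each pool (points; the line is their mean). The hormone genes stand highest in ASP or CGP, lower in CON and lowest in ASP+CGP, as for Prl at 12.49 to 12.53, 10.67 to 11.03 and 7.24 to 8.04 in ASP, CON and ASP+CGP.

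Among the receptors and transcription factors of pituitary cells, 2 of 16 tested were lower in ASP+CGP (median -0.08). Ghrhr, the receptor through which hypothalamic growth hormone-releasing hormone acts on somatotrophs, read 9.40, 9.31 and 9.48 in ASP and 8.43, 8.43 and 8.60 in ASP+CGP, with CON at 8.52, 8.63 and 8.62 (1.88-fold). Tbx19, the corticotroph factor that activates Pomc, differed by -0.54. Its call was lost without the first ASP+CGP array, where the difference was -0.43. Not called for their fold, though at adjusted p values by limma of 0.000375 and 0.00152, were the gonadotropin-releasing hormone receptor Gnrhr (-0.41) and the factor Neurod4 (-0.42). The lineage factors Pitx1, Lhx3 and Six6 had log2 differences of -0.19, -0.10 and -0.06. The summed signal of the 7 hormone genes was 15.14 to 15.16 in ASP, 11.95 to 12.15 in ASP+CGP, 14.11 to 14.18 in CON and at least 14.97 in CGP. These genes are themselves the markers of pituitary cells, and what part the amount of pituitary tissue in a block had in them was not tested.

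The promoters of Prl, Cga and Pomc, the 3 hormone genes with the largest differences among those with a RefSeq promoter, are shown because these genes moved together. Capitals mark TATNCAT on either strand, letters of the site of POU1F1, the factor of prolactin, growth hormone and thyrotropin cells. Each covers the 300 bases around the start of transcription, mostly before it, on the plus strand in GRCm38.p6, for Prl at chr13:27057320-27057619, for Cga at chr4:34893529-34893828 and for Pomc at chr12:3954695-3954994.
Prl: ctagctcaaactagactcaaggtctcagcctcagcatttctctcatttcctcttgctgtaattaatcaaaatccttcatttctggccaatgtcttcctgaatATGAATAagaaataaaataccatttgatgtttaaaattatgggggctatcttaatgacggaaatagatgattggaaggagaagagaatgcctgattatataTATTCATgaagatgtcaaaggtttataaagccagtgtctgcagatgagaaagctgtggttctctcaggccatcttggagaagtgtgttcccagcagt
Cga: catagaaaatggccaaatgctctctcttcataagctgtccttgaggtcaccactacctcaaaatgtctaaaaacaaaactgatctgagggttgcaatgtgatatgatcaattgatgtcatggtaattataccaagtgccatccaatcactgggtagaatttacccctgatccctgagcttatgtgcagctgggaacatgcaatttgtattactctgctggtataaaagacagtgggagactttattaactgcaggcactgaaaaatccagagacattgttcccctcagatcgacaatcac
Pomc: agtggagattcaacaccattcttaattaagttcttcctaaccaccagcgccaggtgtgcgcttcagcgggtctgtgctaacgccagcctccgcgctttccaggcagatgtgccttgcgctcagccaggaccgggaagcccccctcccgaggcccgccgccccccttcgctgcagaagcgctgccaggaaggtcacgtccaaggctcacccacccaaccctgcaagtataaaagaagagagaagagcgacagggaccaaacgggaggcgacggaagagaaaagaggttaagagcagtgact
Prl held the letters 2 times, first at position -148 on the opposite strand and then at -47, counted from the start of transcription. Of the 6 hormone genes matched, 1 held them in any promoter, and 8.8% of all single promoters in the table did.

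Genes that mark the hypothalamus itself were mostly at like levels in the 2 pools. Of 31 neuropeptide genes tested, 2 (6.45%) were lower in ASP+CGP, Pomc and Npy, and none was higher (median 0.04). The share of all genes that were lower was 1.24%. Npy, the orexigenic peptide of arcuate neurons, which adrenal chromaffin cells also make, read 12.04, 12.01 and 11.98 in ASP and 10.94, 10.94 and 11.26 in ASP+CGP, 1.95-fold lower. CON stood between, at 11.36, 11.39 and 11.65. The other genes of the list, corticotropin-releasing hormone (Crh, -0.06), growth hormone-releasing hormone (Ghrh, -0.02), Trh (-0.06), Gnrh1 (0.07) and Sst (0.04) among them, differed by no more than 0.26 log2 units.

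Of 26 transcription factors of hypothalamic nuclei, 2 (7.69%, against 1.24% of all genes) were lower, Tbx3 and Nr5a1, and none higher (median -0.01). Tbx3, a factor of arcuate neurons and tanycytes, read 9.69, 9.84 and 9.87 in ASP and 8.73, 8.69 and 8.48 in ASP+CGP, with CON at 8.76 to 8.81 (2.25-fold). The others, among them Nkx2-1 (-0.03), Sim1 (0.00), Otp (0.00) and Rax (0.07), differed by at most 0.21 in size. None of 22 receptors of feeding signals and none of 16 circadian clock genes passed. Of them 3 and 6 had an unadjusted, and 0 and 2 an adjusted, p below 0.05 by limma.

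No gene of the receptor that the drug blocks passed the test. Of the 6 NMDAR subunit genes tested, none was called by limma, 2 had an unadjusted p below 0.05, Grin1 was not analysed here, and the log2 differences ran from -0.13 (Grin2d) to 0.13 (Grin2a). Grin2b, the main partner of GluN1 in the developing forebrain, read 10.35, 10.43 and 10.27 in ASP and 10.52, 10.52 and 10.34 in ASP+CGP, and the 95% interval of its difference was -0.07 to 0.29. Grin2a read 9.16, 9.20 and 9.17 against 9.28, 9.30 and 9.33, so that the arrays did not overlap, at a difference of 0.13 with an interval from 0.04 to 0.21. The intervals of Grin2c (-0.09 to 0.11), Grin3a (-0.09 to 0.20) and Grin3b (0.02 to 0.19) also excluded a 1.4-fold change. No call was made in the other 28 genes of glutamate receptors and transporters (median 0.07). Of these, 9 had an unadjusted and 7 an adjusted p below 0.05 by limma, and 20 had a positive difference. Of all 17186 genes, 3600 had an unadjusted and 1188 an adjusted p below 0.05 by limma. In the glycine and GABA list, 1 of 23 genes was higher, Gabra6, and 2 were called without the third ASP+CGP array. Of the 23, 14 had an unadjusted and 7 an adjusted p below 0.05 by limma. Slc6a5, the glycine transporter GLYT2 of inhibitory neurons, read 8.11, 8.03 and 7.88 in ASP and 7.43, 7.51 and 7.65 in ASP+CGP and missed the fold threshold at -0.48. It passed at -0.54 without the third ASP+CGP array or without the third ASP array.

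The 6 higher genes had small differences. Cbln3, which cerebellar granule neurons secrete, read 6.96, 6.74 and 7.06 in ASP and 7.60, 7.90 and 7.80 in ASP+CGP, a difference of 0.85 ± 0.10 (SE) with an adjusted p of 0.000112 by limma. Gabra6, the GABA-A receptor subunit of the same neurons, read 5.83, 5.71 and 5.96 against 6.43, 6.50 and 6.55, at least 0.49 with the ASP signal set to 6. Unc13c, a presynaptic vesicle-priming protein that is also strong in cerebellum, read 9.37, 9.37 and 9.33 against 9.96, 10.05 and 9.97 (0.63). All 3 stood higher in ASP+CGP than on any CON or CGP array. The remaining genes were Zfp935 (0.54), which encodes a zinc finger protein, Pcm1 (0.58), a protein of centriolar satellites, and Zfp931, another zinc finger gene. Zfp931 was under 6 in ASP and near it in ASP+CGP, and its difference was 0.07 with the ASP signal set to 6. The call of Zfp935 was lost without the third ASP array, at 0.48. All 7 probe sets of Unc13c read higher in ASP+CGP, but of the other 6, with folds of 1.19 to 1.42, only 1 was called, and the call of the gene was lost when all were averaged (0.42).

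Of 16 cerebellar markers tested, 2 were higher, Cbln3 and Gabra6, none was lower and the median was 0.20. Of the 16, 13 had a positive difference and 8 an adjusted p below 0.05 by limma. Neurod1 (0.45), Car8 (0.34) and Fat2 (0.24) stood next without a call, as did the Purkinje cell gene Pcp2 (0.17). Neurod1 passed without the first ASP+CGP array or without the second ASP array, at 0.50 in each. The summed cerebellar signal was 13.64 to 13.77 in ASP+CGP, 13.59 in ASP, 13.52 to 13.54 in CON and 13.65 to 13.69 in CGP. Whether cerebellar tissue had a part in the higher genes was not tested.

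**Figure D4:**
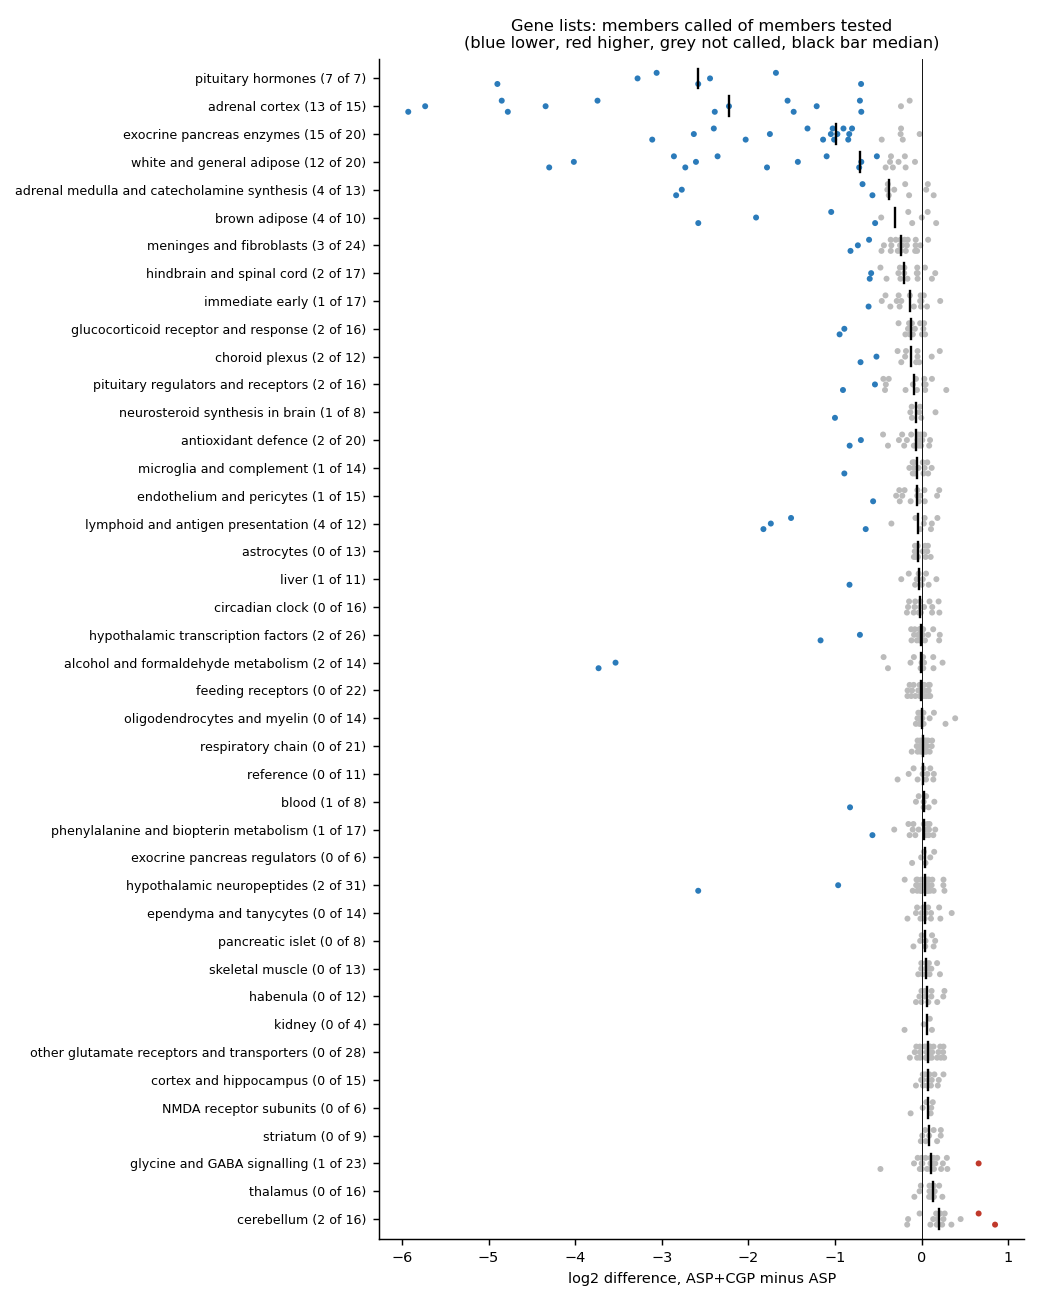
Log2 difference between ASP+CGP and ASP (horizontal axis) of each gene tested in 42 lists (rows, ordered by their median, the black bar), blue where lower, red where higher and grey where not called; the row labels give members called of members tested. The pituitary hormone, adrenal cortex, pancreatic enzyme and white adipose lists spread to the left with medians from -2.58 to -0.71, and the lists of brain cells and regions lie about 0.

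Genes of the meninges and of fibroblasts leaned lower in ASP+CGP. Of 24 tested, 23 had a negative difference and 3 were called (4 without the third ASP+CGP array), with a median of -0.24. Dcn, the matrix proteoglycan decorin, read 10.31, 10.35 and 10.29 in ASP and 9.48, 9.48 and 9.53 in ASP+CGP (1.77-fold), Dapl1 was 1.67-fold and Ogn, osteoglycin, 1.52-fold lower. For all 3 the ASP+CGP arrays were below every CON array. The same held for the 7 pituitary hormone genes, the 2 lower neuropeptide genes and 3 of the 4 lower antigen presentation genes below. It held for 1 of the 13 lower adrenocortical genes, and for 65 of all 213 lower genes. In the choroid plexus list 2 of 12 were lower, Ecrg4 (-0.71) and the water channel Aqp1 (-0.52). The call of Aqp1 was lost without the first ASP array (-0.45) or the second ASP+CGP array (-0.41). The transthyretin gene Ttr, abundant in choroid plexus, read 12.48, 12.54 and 12.48 against 12.19, 12.19 and 12.41 and was not called.

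In the list of lymphoid and antigen presentation genes 4 of 12 were lower, and all 4 belong to the presentation of antigen by MHC class II. H2-Aa read 9.36, 9.39 and 9.46 in ASP and 7.58, 7.50 and 7.66 in ASP+CGP (3.55-fold), Cd74, the invariant chain, was 3.35-fold, H2-Ab1 2.85-fold and H2-Eb1 1.57-fold lower. In 3 of these 4, all but H2-Eb1, every ASP+CGP array lay below every CON array, as for H2-Aa with CON at 7.93 to 8.12. Markers of T and B cells differed by no more than 0.12 in size, for instance Cd3e by -0.02 and Cd79a by 0.03. The class II transactivator Ciita stood at 0.18.

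Astrocyte (0 of 13), ependymal (0 of 14), oligodendrocyte (0 of 14), thalamic (0 of 16), habenular (0 of 12), cortical (0 of 15) and striatal (0 of 9) genes held no call by limma. At an unadjusted p below 0.05 by limma there were 0, 4, 3, 8, 3, 7 and 4 in these lists, against 3600 of all 17186 genes. At an adjusted p below 0.05 there were 0, 3, 2, 2, 1, 2 and 2. The lists of skeletal muscle (13 genes), kidney (4), the respiratory chain (21) and reference genes (11) also held none, with 1, 2, 2 and 4 at an unadjusted p below 0.05. Actb was at 13.96, 13.95 and 13.92 in ASP and at 13.96, 13.95 and 13.78 in ASP+CGP. Microglia (1 of 14, Lcn2), endothelium (1 of 15, Kdr), liver (1 of 11, Alb) and blood (1 of 8, Lyz2) held 1 lower gene each. In the hindbrain and spinal cord list 2 of 17 were lower, the serotonin transporter Slc6a4 (-0.58) and the patterning gene Hoxc6 (-0.60), with a median of -0.20, and 3 were called without the third ASP+CGP array.

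Lists tied to aspartame or to stress signalling held 1 or 2 lower genes each and none higher. Of 14 genes that handle alcohols and formaldehyde, 2 were lower, Cyp2e1 and Adh1, by 13.3-fold and 11.6-fold, and the median of the list was -0.01. Cyp2e1, a microsomal oxidase of ethanol, read 9.94, 9.81 and 9.83 in ASP and 6.05 to 6.20 in ASP+CGP. Adh1, an alcohol dehydrogenase, read 10.38, 10.40 and 10.43 against 6.97, 6.83 and 6.80. Their CON arrays, at 5.99 to 6.17 and 7.02 to 7.13, were near those of ASP+CGP. Both are also made in adipose tissue or the adrenal gland, and what part such cells had in these values was not tested. Among 17 genes of phenylalanine and biopterin metabolism only Th was lower, and none without the third ASP+CGP array. Among 16 genes of the glucocorticoid receptor and its response 2 were lower, Pdk4 (-0.95) and Lcn2 (-0.89), whereas the receptor gene Nr3c1 (0.04) and its classical targets Fkbp5 (-0.13), Tsc22d3 (-0.02) and Sgk1 (-0.08) were not called. Lcn2 was at 8.19, 8.36 and 8.16 in ASP, 7.34, 7.32 and 7.36 in ASP+CGP and 8.11, 8.10 and 8.24 in CON, so that ASP+CGP was the pool that stood apart. Of 20 antioxidant genes Sod3 (-0.83) and Hmox1 (-0.70) were lower, 16 had a negative difference and 7 an adjusted p below 0.05 by limma, and 3 were lower without the third ASP+CGP array. Of 17 immediate early genes Nr4a1 (-0.61) was lower, 14 had a negative difference and 7 an adjusted p below 0.05. Of the 8 genes tested in the list of neurosteroid synthesis, Tspo, the mitochondrial cholesterol-binding protein, was lower (2.00-fold). That list leaves out Star, Cyp11a1, Cyp11b1 and Hsd3b1, which the study also counts as neurosteroidogenic. They stood in the adrenocortical list above, where all were lower. Srd5a2, which the study names too, was not among the genes tested.

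Whether the pools with and without CGP 39551 differed alike in the presence and absence of aspartame was addressed by the difference of 2 differences, that between ASP+CGP and ASP minus that between CGP and CON. It passed the same thresholds in 257 genes (1.5%), 232 with a negative and 25 with a positive value. Of the 219 DEGs, 204 were among them. This overlap is largely built in, because the difference between ASP+CGP and ASP is itself a part of the contrast. Only 11 of the lower genes had an adjusted p below 0.05 by limma between CGP and CON. The 204 are therefore not separate evidence. As each group was 1 pool, these calls too measure the spread between arrays. The adrenocortical gene Cyp11b1 differed by -5.93 between ASP+CGP and ASP and by 0.04 between CGP and CON, and Car3 by -4.30 and 0.02. In the 7 pituitary hormone genes the 2 differences had opposite signs, -4.90 and 1.38 for Prl, -3.06 and 0.63 for Gh, and -1.68 and 1.08 for Fshb. Slc6a5 was lower in both, by -0.48 between ASP+CGP and ASP and by -2.03 between CGP and CON, and the difference of differences was 1.55 ± 0.12 (SE).

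**Figure D5:**
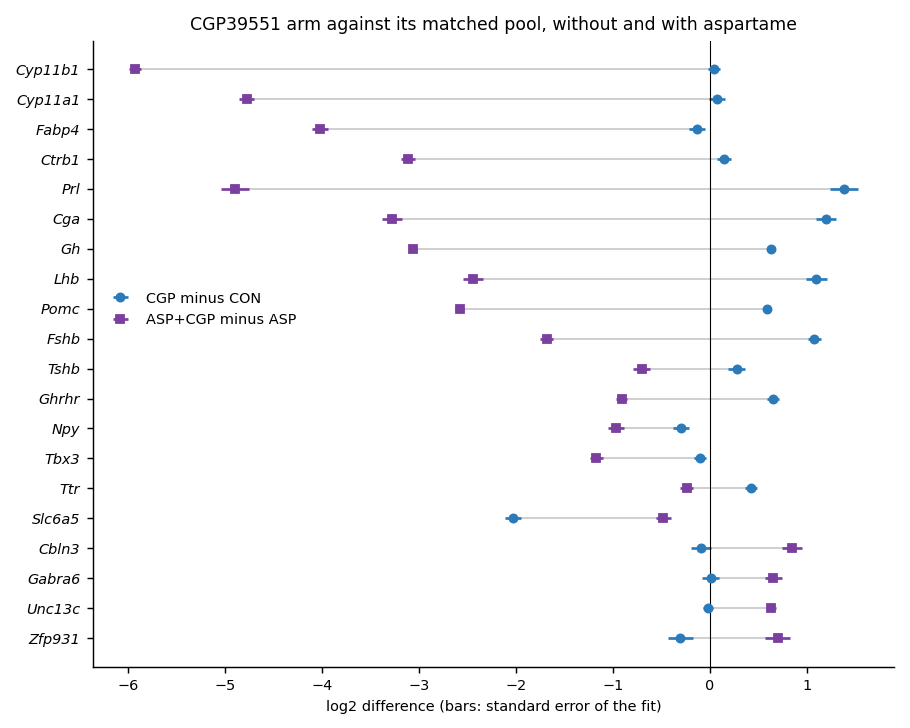
Log2 difference (horizontal axis) of 20 genes between ASP+CGP and ASP (purple squares) and between CGP and CON (blue circles), with bars for the standard error of the fit and with signals under 6, as in Fabp4, Gabra6 and Zfp931, plotted as measured. The squares of the upper genes lie far to the left of 0, as for Cyp11b1 at -5.93 beside 0.04, the pituitary hormone genes have circles to the right and squares to the left, and the bottom 4 genes have squares to the right.

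Among the 213 lower genes as a whole, the CON pool was nearer to ASP+CGP than to ASP in 197 and nearer to ASP in 16. The mean of CON lay between the means of ASP and ASP+CGP in 149, below both in 64 and above both in none. The ASP+CGP arrays overlapped the CON arrays in 142 genes, lay below all of them in 65 and above all of them in 6. In 202 genes every ASP array was above every CON and CGP array. These genes were called for standing higher in ASP than in ASP+CGP on these same arrays, so the counts are partly set by that choice. They are a description, and the shares over all genes were not counted. The 24 lower and 1 higher genes of 38 that the study itself named for the hypothalamus were chosen on these same arrays, so that their count, 26 in all without the third ASP+CGP array, is not independent evidence.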

How the data were processed

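Pooled hypothalamic RNA was measured on 12 arrays in 4 groups of 3. The authors used Partek Genomics Suite and RMA (background correction, quantile normalization, median polish) and deposited log2 signals. The genome build is not given in the sources used here. RMA compresses low signals, so differences against signals near 6 are understated. Probe sets with 1 gene symbol in the platform annotation (19019 of 29149) were kept, of which 18810 reached a log2 signal of 6 in 3 or more arrays. limma 3.58.1 (R 4.3.3) took all 12 arrays in 1 fit of the 4 group means, and p-values were adjusted by Benjamini-Hochberg over all 18810. DEGs had an adjusted p below 0.05 and a fold above 1.4. A gene was represented by its probe set of highest mean. Arrays give no counts, and their number limits the precision. With 3 against 3 an exact permutation test could not go below p = 0.1.

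The arrays of each group were taken by their labels, but the 42 gene lists and the tests were chosen with earlier results of these data known. Named were the 15 largest falls and rises without overlap, up to 6 DEGs per list, genes the study names, the NMDAR subunits and Actb; other genes were chosen after their values were seen. The alternatives are in the closing section. Promoters are from RefSeq (GRCm38.p6). Figures were drawn with matplotlib.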

Additional observations from a re-analysis of the deposited data

Results flagged for a closer look

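The difference between the pools with and without CGP 39551 was not the same with and without aspartame in 257 genes, measured against the spread between arrays of 1 pool per group, by the difference between ASP+CGP and ASP minus that between CGP and CON (limma, adjusted p below 0.05 and over 1.4-fold). Among the named genes it was -5.97 for Cyp11b1, -5.83 for Cyp21a1, -4.99 for Hsd3b1, -4.85 for Cyp11a1, -4.42 for Star and -3.59 for Mc2r, all of the adrenal cortex. It was -4.32 for Car3 and -3.89 for Fabp4, of adipose tissue, and -3.26 for Ctrb1, of the pancreas. Cyp2e1 had -3.97, Adh1 -3.54, Mgarp -3.43 and Ly6d -3.34. In the pituitary, Prl had -6.28 and Cga -4.48. Hsd3b1, Mc2r, Fabp4 and Mgarp were under a signal of 6 in the 3 pools other than ASP, and with those means set to 6 their values were -3.99, -2.77, -3.57 and -2.58.

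Positive values were 0.94 for Cbln3, 1.0 for Zfp931, 0.64 for Gabra6, 0.65 for Unc13c, 0.58 for Pcm1 and 0.77 for Zfp935, the 6 genes higher in ASP+CGP than in ASP. With means under 6 set to 6 those of Zfp931 and Gabra6 were 0.07 and 0.49. Genes not called between ASP+CGP and ASP could also differ in this way. Slc6a5 had 1.55, Bpifa1 0.94 and Lamp5 0.59, and Gpr151, a receptor of habenular neurons, had -0.74, the nicotinic receptor subunit Chrnb4 -0.86, Scube1 -0.55 and Ttr -0.66.

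Among probe sets not used in the comparison of genes, 39 without a gene symbol and 9 with several symbols passed the same thresholds between ASP+CGP and ASP. Of the 39, 31 were lower in ASP+CGP, and of the 9 all were.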

How the results depend on the processing

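In 28 alternatives none of the called genes among the 119 named by the rule changed direction, and genes chosen after their values were seen were not followed singly. The counts were 200 to 220 lower genes, 4 to 9 higher genes, 218 to 244 probe sets and 225 to 289 genes by the difference of differences, except where the rule on fold was changed. A test against a fold of 1.4 in place of 0 (limma treat) left 110 lower and 0 higher genes, 113 probe sets and 95 genes by the difference of differences. With no fold threshold there were 730 lower and 458 higher genes and 1333 probe sets, and with a fold over 2 there were 74 lower and 0 higher genes, 76 probe sets and 86 genes by the difference of differences. Leaving out 1 array at a time gave 213 to 219 lower genes, 6 to 9 higher genes, 234 to 244 probe sets and 246 to 289 genes by the difference of differences. Of the 219 DEGs, 105 were called in every alternative but the fold over 2.

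Arrays of the same number did not deviate together in ASP and ASP+CGP (r = -0.112, 0.184 and 0.0842 for numbers 1 to 3), so the numbers were not taken to pair them. With the replicate block there were 215 lower and 6 higher genes, 236 probe sets and 259 genes by the difference of differences.

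Hoxc6 lost its call when the spread of each gene was not moderated (adjusted p 0.0647). Probe sets were not counted where all those of a gene were averaged or 1 stood for each gene, and the difference of differences was not fitted to 6 arrays alone. With 1 pool per group no alternative here bears on the spread between mice.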

Other observations

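Of the 213 lower genes, 131 belonged to none of the lists. The genes given here and below were chosen after their values were seen from no fixed list, so that nothing follows from them about a group. Agtr1a, an angiotensin receptor, differed by -2.32. The aldo-keto reductases Akr1cl and Akr1b8 were lower by at least 4.26-fold and 2.68-fold, taken against a signal of 6. Lower too were Plin2, a coat protein of lipid droplets (-1.04), Agpat2, an enzyme of triglyceride synthesis (-1.44), and Pck1, the key enzyme of gluconeogenesis and glyceroneogenesis (-1.57). The transporter gene Abcb1b differed by -2.12. The fatty acid oxidation enzyme genes Acaa2, Hadh and Ehhadh differed by -0.60, -0.53 and -0.56.

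Of single genes for transcription factors, Tbx20 was lower by at least 2.15-fold against a signal of 6, Gata6 differed by -0.88, Hoxc8 by -0.79 and Hoxb9 by -0.76. Matrix proteins are encoded by Pcolce (-1.83), Ecm1 (-1.27), Bgn (-0.99), Hspg2 (-0.60) and Nid1 (-0.55).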
